A study of Mus musculus with 4 samples.

Results

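Translation initiation and elongation factors were followed in RNA from group 2 innate lymphoid cells (ILC2) of mouse pancreatic islets. Members were taken by symbol, as every gene named Eif1 to Eif6 or Eef1 and Eef2 with any suffix, pseudogenes left out. The rule gave 59 of the 15835 genes in the count table, 52 with Eif symbols (called initiation factors) and 7 with Eef symbols (called elongation factors). ILC2 are tissue-resident lymphocytes that secrete type 2 cytokines. They came from islets of C57BL/6j mice that were either fed or fasted, and no further allele or agent is labelled. The sources used here do not state the age or sex of the mice, the length of the fast, the gate that collected the cells, or whether each library is a separate mouse. Libraries were made with CEL-seq2, which counts the 3′ ends of polyadenylated RNA. There were 4 libraries of each group, numbered 1, 3, 4 and 5 as in the column names, and every series of values here follows that order. The p-values therefore reflect how far the libraries of a group spread, and some of that spread may be technical.

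Protein synthesis starts when the small ribosomal subunit, carrying the initiator tRNA on eIF2, is brought by eIF3 and the cap-binding eIF4 complex to the 5′ end of an mRNA and scans to the start codon. During elongation eEF1A delivers each aminoacyl-tRNA, the eEF1B complex recharges eEF1A with GTP, and eEF2 moves the ribosome to the next codon. Nutrient supply acts on both stages, through mTORC1 and the 4E-BP repressors of cap binding, through kinases that phosphorylate eIF2, and through the kinase that inhibits eEF2. In lymphocytes the amount and phosphorylation of these factors are known to change with activation. The counts measured here are of mRNA, and phosphorylation was not measured.

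The start regions of 5 genes are printed because their libraries bear most on the comparison. Eef2 was the most abundant member, and Eef1b2, Eif1, Eif4g1 and Eef1e1 were the members with the smallest p-values. Each run holds 110 bases before and 25 bases after the RefSeq start on build GRCm38.p6, read 5′ to 3′ on the gene's strand. Capitals mark CACGTG, the palindromic E-box core bound by Myc, Max, Usf and Tfe factors, and CTCTT between 10 bases before and 50 after the start, a pyrimidine run like the one that opens the mRNAs of many translation factors.
Eef2, chr10:81176521-81176655, plus strand: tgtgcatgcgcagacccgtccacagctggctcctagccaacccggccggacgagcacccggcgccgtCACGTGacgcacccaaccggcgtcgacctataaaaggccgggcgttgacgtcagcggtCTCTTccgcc
Eef1b2, chr1:63176721-63176855, plus strand: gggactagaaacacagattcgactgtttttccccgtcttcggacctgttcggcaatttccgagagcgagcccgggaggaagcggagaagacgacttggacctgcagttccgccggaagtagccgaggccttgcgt
Eif1, chr11:100319839-100319973, plus strand: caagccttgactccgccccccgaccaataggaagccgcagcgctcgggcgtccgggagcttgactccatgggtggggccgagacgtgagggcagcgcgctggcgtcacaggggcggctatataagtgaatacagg
Eif4g1, chr16:20672617-20672751, plus strand: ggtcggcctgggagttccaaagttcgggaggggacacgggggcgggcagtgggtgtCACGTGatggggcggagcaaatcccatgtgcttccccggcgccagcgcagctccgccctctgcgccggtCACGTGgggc
Eef1e1, chr13:38659004-38659138, minus strand: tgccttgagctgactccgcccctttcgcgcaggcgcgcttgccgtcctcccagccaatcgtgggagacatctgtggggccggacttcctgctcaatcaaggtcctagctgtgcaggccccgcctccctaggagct
In these windows Eef2 held CACGTG at position -43 from the start and CTCTT at position 16. Eif4g1 held CACGTG at positions -54 and 16, and the windows of Eef1b2, Eif1 and Eef1e1 held neither run of letters. The RefSeq start used for Eif4g1 lies inside the gene as GENCODE places it, from chr16:20668313, and that upstream start was not searched.

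Library totals ran from 1797504 to 25252366 counts, with 9537 to 14056 genes detected. All 12 fixed ILC2 markers were in the table, 11 of them with counts in every library, and their sum was 1062 to 3811 CPM (counts scaled to a common library size) of the library total in fed and 1345 to 5663 in fasted libraries. RNA of pancreatic acinar cells was also present. The 18 acinar markers found, of 19 fixed, none at 0 in any library, held 28.4%, 34.7%, 51.0% and 45.9% of all counts in the fed libraries and 2.23%, 2.50%, 47.6% and 49.8% in the fasted ones. Fasted libraries 1 and 3 thus stood apart, and how the members' values changed without them is given after the single genes. Other marker lists were sparse, and the highest was the myeloid sum of 422 CPM in fasted library 1. Which cells the factor mRNAs came from was not tested. In such bulk libraries fewer cells of a type and less RNA per cell cannot be told apart. Levels here are CPM over library sizes scaled by trimmed mean of M-values (TMM), so a level is relative to the bulk of genes in its library.

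No initiation or elongation factor passed the test between fasted and fed libraries. Of the 59 members, 56 had enough counts to be tested (49 initiation and 7 elongation factors), and 3 did not: the eIF2 kinases Eif2ak2 and Eif2ak4, and Eif5a2, the scarce paralog of Eif5a. The edgeR quasi-likelihood test called 0 of the 56 at a Benjamini-Hochberg adjusted p under 0.05, against 0 of all 7700 genes tested, a background of 0%. At an unadjusted p under 0.05 there were 4 members of 56, Eef1e1, Eif4g1, Eif1 and Eef1b2, against 338 genes or 4.39% of all. DESeq2 called 8 genes and limma-voom with quality weights called 0, with no member among them. With the column number as a replicate block, 7 members had an unadjusted p under 0.05 (edgeR), the added ones being Eif3e, Eif3h and Eef2, against 535 genes or 6.95% of all, and none passed adjustment.

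Values of the 4 fasted libraries lay entirely above the 4 fed ones for 3 members, Eif1, Eef1b2 and Eif3h, where 2.21% of all genes did so. For 2 members, Eef1e1 and Eif4g1, they lay entirely below, against 1.31% of all genes. Together these 5 of 56 compare with 3.52% of all genes. Libraries of the same number were higher when fasted in all 4 pairs for 10 members (9.38% of all genes) and lower in all 4 for 3 members (8.31% of all genes).

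**Figure D1:**
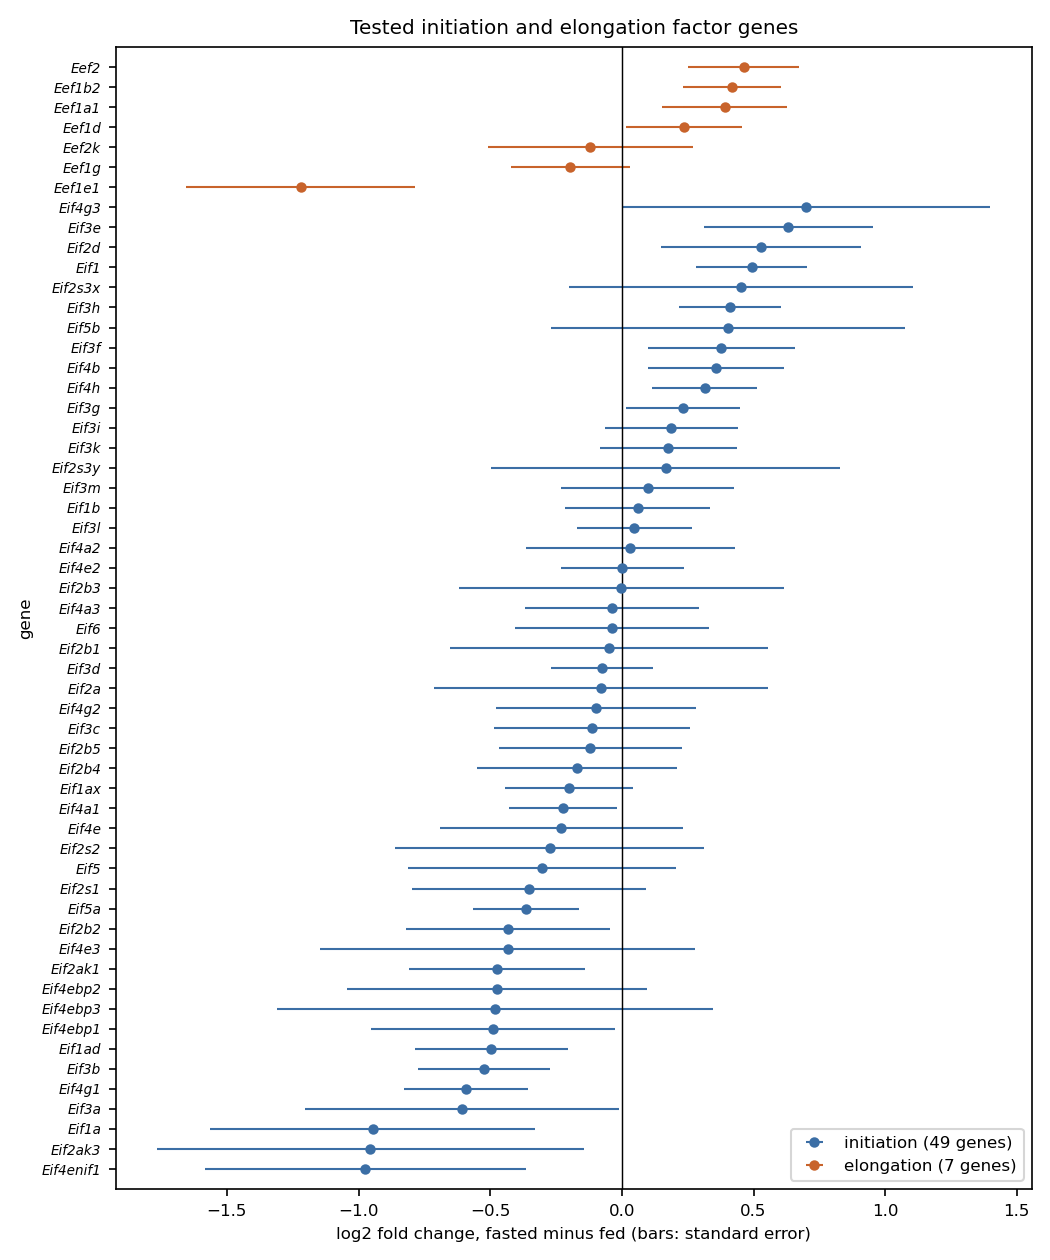
Log2 fold change (fasted minus fed, x axis) of the 56 tested factor genes (y axis), with points for the fitted value and bars for the standard error. The 7 elongation factors (orange) run from -1.22 for Eef1e1 to 0.46 for Eef2, and the 49 initiation factors (blue) from -0.97 for Eif4enif1 to 0.70 for Eif4g3, with none past the adjusted threshold.

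Among the core elongation factors, 4 of 5 had a higher mean in fasted libraries. Eef2, the GTPase that translocates the ribosome (chr10:81176631-81182498, mm10), stood at 1198, 1292, 1427 and 1785 CPM in fed libraries and at 1829, 2257, 1696 and 2079 CPM in fasted ones. Only fed library 5 exceeded a fasted library, number 4, so the groups overlapped by that pair. The log2 fold change was 0.46 ± 0.21 (SE), with an unadjusted p of 0.0503 and an adjusted p of 1.00 in edgeR.

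Eef1a1, the GTPase that carries aminoacyl-tRNA to the ribosome, was at 577, 753, 939 and 546 CPM in fed and 695, 919, 1004 and 1073 CPM in fasted libraries. The groups overlapped, fed libraries 3 and 4 lying above fasted library 1, although each fasted library exceeded the fed one of its number. Its log2 fold change was 0.39 ± 0.24 (SE). Eef1a1 has many processed pseudogenes, so its counts depend on how shared reads were assigned, which the sources used here do not state.

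The exchange complex eEF1B, which reloads eEF1A with GTP, was uneven in its 3 subunit genes. Eef1b2, a subunit that catalyses the exchange (chr1:63176825-63180486), was at 512, 512, 632 and 594 CPM in fed and 791, 713, 645 and 858 CPM in fasted libraries. All fasted values lay above all fed ones, with fasted library 4 just over fed library 4. The fold change was 0.42 ± 0.19 (SE) on the log2 scale, with an unadjusted p of 0.047 and an adjusted p of 1.00 in edgeR. An exon of Ndufs1 on the other strand overlaps Eef1b2, and the counting is not stated to use strand.

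Eef1d, which encodes the other exchange subunit, was at 112, 92.3, 79.8 and 117 CPM in fed and 109, 129, 94.2 and 139 CPM in fasted libraries, with overlapping groups and a log2 fold change of 0.24 ± 0.22 (SE). Its exons overlap Naprt on the same strand, so reads there could belong to either gene. Eef1g, the structural gamma subunit, had the opposite sign, at 224, 218, 278 and 376 CPM in fed and 213, 251, 212 and 280 CPM in fasted libraries. Its groups overlapped too, and the log2 fold change was -0.20 ± 0.23 (SE). As a share of all elongation factor counts Eef1g was 8.79% ± 1.49 (SD, n = 4) in fed and 5.94% ± 0.237 in fasted libraries, from 7.54% to 10.9% and from 5.77% to 6.29%, without overlap. Such a share also falls when other elongation factors rise, so it does not measure Eef1g alone.

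Of the accessory Eef genes, Eef1e1 (chr13:38644207-38659058) had the lowest value of all 56 members. It encodes a small protein of the aminoacyl-tRNA synthetase complex, also named AIMP3, and is not itself an elongation factor. Its levels were 5.80, 11.8, 9.68 and 4.80 CPM in fed and 3.27, 3.51, 3.13 and 3.98 CPM in fasted libraries. The fasted values were close together and below every fed value, although the nearest, 3.98 in fasted library 5 and 4.80 in fed library 5, differed little. They rest on few counts, 13, 87, 131 and 14 in fed and 14, 18, 17 and 21 in fasted libraries, so single levels are imprecise. The log2 fold change was -1.22 ± 0.43 (SE), with an unadjusted p of 0.0167 and an adjusted p of 1.00 (edgeR). Eef2k, the kinase that phosphorylates and inhibits eEF2, was at 24.5, 11.1, 13.2 and 8.56 CPM in fed and 10.3, 9.56, 14.4 and 18.01 CPM in fasted libraries. Fed library 1 was its highest value and fed library 5 its lowest, so the groups overlapped throughout, and the sign of its log2 fold change (-0.12 ± 0.39, SE) turned to 0.19 without fasted libraries 1 and 3.

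**Figure D2:**
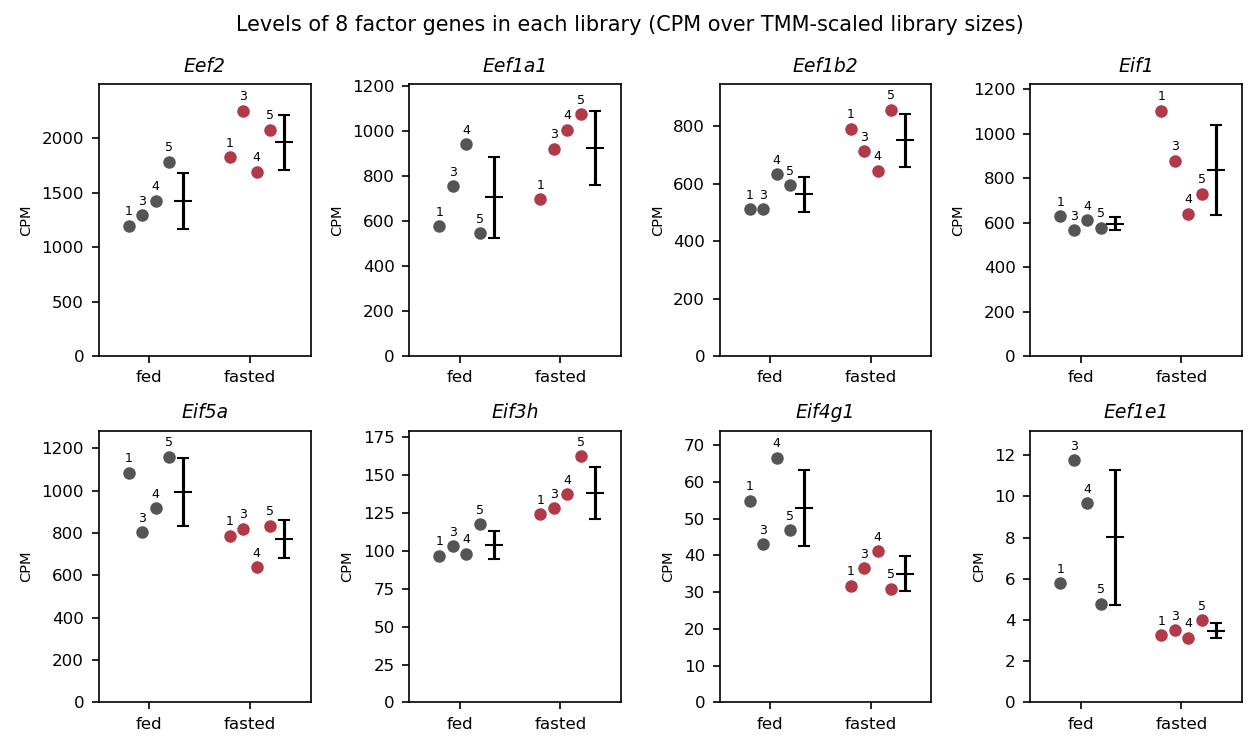
CPM over TMM-scaled library sizes (y axis, from 0) of 8 factor genes in fed (grey) and fasted (red) libraries, with the library number above each point and the mean ± SD (n = 4) beside it. Eef1b2, Eif1 and Eif3h lay higher and Eif4g1 and Eef1e1 lower in all 4 fasted libraries, while Eef2, Eef1a1 and Eif5a overlapped.

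Eif5a, a hypusine-containing protein named for initiation but known to act mainly in elongation and termination, held the most counts of any Eif gene. It stood at 1086, 805, 919 and 1161 CPM in fed and 788, 821, 638 and 834 CPM in fasted libraries. Fed library 3 lay below fasted libraries 3 and 5, and the other fed libraries lay above every fasted one. The log2 fold change was -0.37 ± 0.20 (SE) with an unadjusted p of 0.096 in edgeR. Eif5a supplied 28.4% ± 3.5 (SD, n = 4) of all initiation factor counts in fed and 21.6% ± 2.05 in fasted libraries, from 25.2% to 32.6% and from 18.8% to 23.4%, without overlap. These shares compare counts of 3′ ends, of which each mRNA gives about the same number whatever its length, and no division by length was made. Each share also depends on the counts of the other members of its class.

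Eif1, which keeps the scanning ribosome from starting at a wrong codon (chr11:100319885-100322096), was the next in counts among Eif genes. It was at 630.3, 566, 612 and 577 CPM in fed and 1105, 879.8, 640.4 and 731 CPM in fasted libraries. Fed values lay within a narrow band, SD 30.1, while the fasted ones spread with an SD of 203 and reached their highest in the acinar-poor libraries 1 and 3. Its log2 fold change was 0.49 ± 0.21 (SE), with an unadjusted p of 0.0396 and an adjusted p of 1.00 in edgeR. Without fasted libraries 1 and 3 the value was 0.20, and with the acinar share as a covariate 0.24. The part of acinar RNA in the difference was not tested.

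Other genes of the eIF1 family had fewer counts. Eif1ax, the X-linked eIF1A gene that works with eIF1 in scanning, averaged 37.9 ± 6.59 CPM (SD, n = 4) in fed and 33.0 ± 5.29 in fasted libraries (log2 fold change -0.20). Eif1ad, a nuclear relative whose role in initiation is not established, averaged 27.7 ± 7.25 and 19.5 ± 4.22 CPM, or -0.50 ± 0.29 (SE) on the log2 scale. Its exons overlap Banf1 on the other strand. Eif1b, the close paralog of Eif1, averaged 17.8 ± 1.69 and 18.6 ± 4.48 CPM, and Eif1a, the autosomal paralog of Eif1ax, 7.72 ± 3.69 and 4.05 ± 3.39 CPM. Reads shared between these paralog pairs could be split either way.

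The eIF2 complex, which carries the initiator tRNA, had 2 of its 4 subunit genes on each side of 0. Eif2s1, the alpha subunit that stress kinases phosphorylate, was at 28.1, 62.9, 62.1 and 15.1 CPM in fed and 31.1, 18.3, 46.5 and 37.0 CPM in fasted libraries. All fasted values fell inside the fed range, and the log2 fold change was -0.35 ± 0.45 (SE). Eif2s2, the beta subunit, was at 26.3, 14.1, 33.4 and 15.4 CPM in fed and 9.12, 6.44, 45.7 and 12.5 CPM in fasted libraries, highest in number 4 of both groups. Its log2 fold change of -0.27 ± 0.59 (SE) had the opposite sign, 0.40, without fasted libraries 1 and 3. The gamma subunit genes Eif2s3x on chromosome X and Eif2s3y on chromosome Y, near copies of each other, had log2 fold changes of 0.45 ± 0.65 and 0.17 ± 0.66 (SE).

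All 5 genes of eIF2B, the factor that recharges eIF2 with GTP, had fold changes below 0, from -0.43 for Eif2b2 to -0.00 for Eif2b3, with a median of -0.12, but 3 of 5 were above 0 without fasted libraries 1 and 3 (median 0.19) and 3 of 5 without fed library 4 (median 0.05). On library totals 5 of 5 were above 0 and 1 of 5 above the median of all genes. None had an unadjusted p under 0.05. Eif2b5, the catalytic epsilon subunit, was at 11.6, 10.7, 16.6 and 11.7 CPM in fed and 7.02, 9.76, 14.8 and 15.2 CPM in fasted libraries. Its groups overlapped, and its log2 fold change of -0.12 ± 0.35 (SE) was 0.24 without fasted libraries 1 and 3. Eif2d and Eif2a, which can deliver initiator tRNA in place of eIF2, had log2 fold changes of 0.53 ± 0.38 and -0.08 ± 0.63 (SE).

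Of the kinases that phosphorylate eIF2, 3 of 4 were scarce. The exception was Eif2ak1, the heme-regulated kinase, which averaged 30.3 ± 7.42 CPM (SD, n = 4) in fed and 21.8 ± 8.51 in fasted libraries, or -0.47 ± 0.33 (SE) on the log2 scale. Eif2ak3, the endoplasmic reticulum stress kinase PERK, was at 2.68, 3.25, 15.2 and 1.03 CPM in fed and 2.11, 0.781, 4.79 and 4.17 CPM in fasted libraries. Its log2 fold change of -0.96 ± 0.81 (SE) rested on fed library 4, without which it was 0.33. Eif2ak4, the amino acid sensor GCN2, stayed at or under 1.48 CPM in every library and Eif2ak2, the double-stranded RNA sensor PKR, at or under 4.80 CPM, so a difference was not tested in either.

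The 12 tested genes of eIF3, the large scaffold that joins ribosome and mRNA, held 8 with a fold change above 0 and 4 below, with a median of 0.14 (on library totals, 7 of 12 above the median of all genes). Eif3h, a subunit with an MPN domain (chr15:51786558-51865523), was at 96.8, 103, 98.3 and 118 CPM in fed and 124, 128, 138 and 163 CPM in fasted libraries. Each fasted library lay above each fed one, the closest being fasted 1 and fed 5. The log2 fold change was 0.41 ± 0.19 (SE) with an unadjusted p of 0.0569 (edgeR), and it was 0.53 without fasted libraries 1 and 3. Eif3e, a subunit with a PCI domain, was at 11.2, 17.5, 19.0 and 10.3 CPM in fed and 18.01, 24.0, 31.2 and 17.6 CPM in fasted libraries. Each fasted library exceeded the fed one of its number, and the groups overlapped through fed library 4, giving a log2 fold change of 0.63 ± 0.32 (SE).

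Eif3b, a core subunit, had the opposite sign, at 45.5, 46.0, 36.2 and 31.9 CPM in fed and 24.6, 23.6, 27.5 and 35.3 CPM in fasted libraries. Only fasted library 5 exceeded any fed library, namely number 5, and the log2 fold change was -0.52 ± 0.25 (SE) with an unadjusted p of 0.0589 (edgeR). Eif3a, the largest subunit, was at 17.0, 10.6, 17.5 and 9.93 CPM in fed and 3.27, 3.90, 23.04 and 5.69 CPM in fasted libraries. Fasted library 4 held the highest value of all 8, and the other fasted libraries the 3 lowest. Its log2 fold change of -0.61 ± 0.59 (SE) was 0.08 without fasted libraries 1 and 3 and -1.68 without fasted library 4.

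Read along the subunit letters, Eif3a to Eif3d were below 0 (4 of 4, median -0.32) and Eif3e to Eif3m above 0 (8 of 8, median 0.21). That split was noticed after the values were seen and has no test. Without fasted libraries 1 and 3 it was 2 of 4 above 0 for Eif3a to Eif3d (median -0.06) and 8 of 8 for the others (median 0.18). On library totals the count above 0 was likewise 2 of 4 and 8 of 8, but there the median of all genes was 0.51. The medians of the 2 sets on that scale were -0.07 for Eif3a to Eif3d and 0.77 for the others. Without fasted library 4 the count above 0 was 0 of 4 and 7 of 8. Eif3f, for which each fasted library exceeded the fed one of its number, differed most within the second set between the fits with and without fasted libraries 1 and 3, at 0.38 and 0.10.

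**Figure D3:**
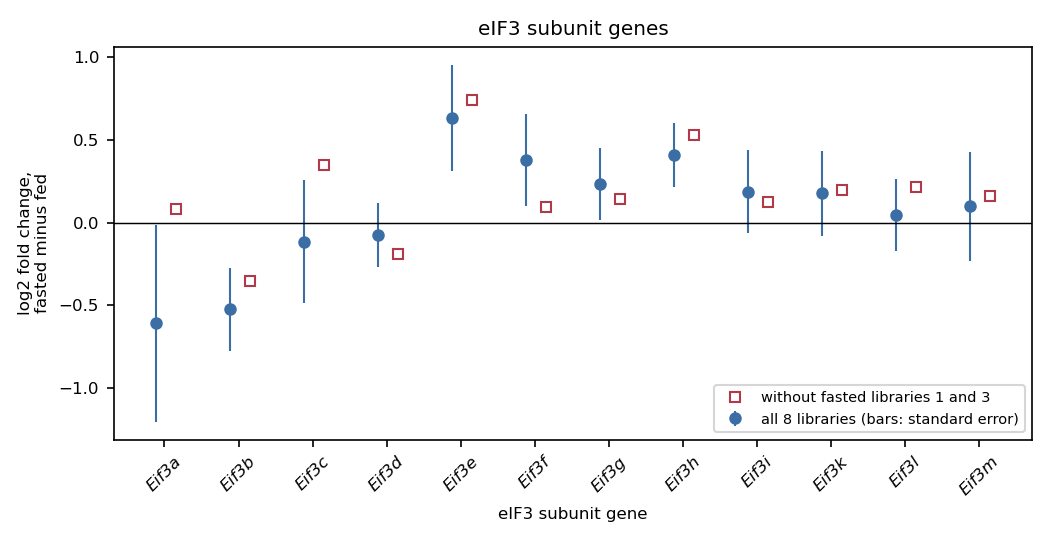
Log2 fold change (fasted minus fed, y axis) of the 12 eIF3 subunit genes (x axis), with filled points and bars for all 8 libraries ± standard error and open squares for the fit without fasted libraries 1 and 3. Eif3e to Eif3m lay above 0 in both fits, whereas Eif3a and Eif3c changed sign.

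Of the 11 tested cap-binding and helicase genes of the eIF4 group, 5 were above 0 and 6 below, and without fasted libraries 1 and 3 the count above 0 was 7. Eif4g1, the scaffold that links the cap-binding protein to eIF3 (chr16:20668313-20692884), was at 54.9, 43.0, 66.6 and 46.9 CPM in fed and 31.8, 36.5, 41.1 and 30.9 CPM in fasted libraries. Every fasted value lay below every fed value, with 41.1 in fasted library 4 next to 43.0 in fed library 3. The log2 fold change was -0.59 ± 0.23 (SE), with an unadjusted p of 0.0277 and an adjusted p of 1.00 in edgeR. Its paralogs had other values: Eif4g2, which lacks the part that binds the cap protein, was at -0.10 ± 0.38 (SE) and Eif4g3 at 0.70 ± 0.70 (SE) on the log2 scale, the latter in mean CPM of 4.35 in fed and 7.42 in fasted libraries. The value of Eif4g3 was 0.24 without fasted library 4 and 1.21 without fed library 4, and fed library 5 held 1 count of it.

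Eif4e, the cap-binding protein itself, was at 44.6, 39.8, 38.6 and 6.17 CPM in fed and 24.3, 27.9, 27.8 and 30.3 CPM in fasted libraries. The fasted values lay below 3 fed ones and above fed library 5, and the log2 fold change was -0.23 ± 0.46 (SE). Eif4a1, the helicase that opens 5′ structure, averaged 71.6 ± 11.8 CPM (SD, n = 4) in fed and 61.5 ± 2.97 in fasted libraries, lower in fasted in all 4 pairs, with a log2 fold change of -0.22 ± 0.21 (SE). Eif4a2, its close paralog with which reads may be shared, had a log2 fold change of 0.03 ± 0.40 (SE).

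The helicase cofactors had the opposite sign from Eif4a1. Eif4h was at 186, 149.8, 132 and 152 CPM in fed and 232, 172, 187 and 179 CPM in fasted libraries, higher in fasted in all 4 pairs, with groups that overlapped through fed library 1 and a log2 fold change of 0.31 ± 0.20 (SE). Eif4b averaged 129 ± 18.7 CPM (SD, n = 4) in fed and 165 ± 55.8 in fasted libraries. Fasted library 4 stood highest, at 242 CPM, and the log2 fold change was 0.36 ± 0.26 (SE) with it and 0.10 without it.

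The 4 tested repressors of cap binding were all below 0, with a median of -0.49 and no unadjusted p under 0.05 (edgeR). Without fasted libraries 1 and 3, 1 of 4 was above 0. On library totals 1 of 4 was above 0 and 0 of 4 above the median of all genes. Eif4ebp1, the mTORC1-regulated 4E-BP1 and by far the most counted of them, was at 29.4, 43.6, 95.3 and 79.8 CPM in fed and 24.8, 33.2, 32.4 and 86.8 CPM in fasted libraries. The groups overlapped widely, since fasted library 5 exceeded all fed libraries but number 4. Its log2 fold change of -0.49 ± 0.46 (SE) was -0.06 without fasted libraries 1 and 3 and was -1.05 when fasted library 5 was left out and -0.21 when fed library 4 was. Eif4enif1, which carries the cap-binding protein to the nucleus and to RNA granules, averaged 3.96 ± 2.10 CPM (SD, n = 4) in fed and 2.02 ± 0.732 in fasted libraries. Eif4ebp2 and Eif4ebp3 had log2 fold changes of -0.47 ± 0.57 and -0.48 ± 0.83 (SE), and the exons of Eif4ebp3 also belong to a readthrough transcript on the same strand.

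The late initiation factors overlapped between the groups. Eif5, which triggers GTP hydrolysis on eIF2 at the start codon, averaged 21.4 ± 13.2 CPM (SD, n = 4) in fed and 17.6 ± 11.2 in fasted libraries. Eif5b, which joins the large subunit, was at 10.7, 12.8, 30.4 and 10.96 CPM in fed and 8.65, 8.001, 58.2 and 12.1 CPM in fasted libraries. Library 4 was the highest of either group, and the log2 fold change of 0.40 ± 0.67 (SE) became -0.79 without fasted library 4. Eif6, which keeps the large subunit apart until it is mature, averaged 58.7 ± 21.5 CPM in fed and 56.9 ± 21.0 in fasted libraries, lowest in library 4 of both groups.

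Without fasted libraries 1 and 3, 34 of the 56 tested members changed sign (13) or moved by over 1.5 times (12 away from 0 and 9 toward it), while 6 of the 7 elongation factors did neither. The share of all genes that did so was not computed, so these counts have no background to be read against. A value near 0 also meets the rule easily, as Eif2b3 did (-0.00 with and -0.30 without those libraries). The fold change was larger for Eif5b (0.40 with and 1.11 without), Eif4b (0.36 and 0.68), Eif6 (-0.04 and -0.52) and Eif4ebp2 (-0.47 and -0.83). It was smaller for Eif2ak3 (-0.96 and -0.34), Eif1a (-0.95 and -0.28), Eif2d (0.53 and 0.17), Eif2s1 (-0.35 and -0.02) and Eif4e (-0.23 and -0.15). Besides the sign changes given above, Eif2a was at -0.08 with and 0.48 without those libraries, Eif1b at 0.06 and -0.28, Eif3c at -0.11 and 0.35, Eif4g2 at -0.10 and 0.32, Eif5 at -0.30 and 0.12, and Eif4ebp3 at -0.48 and 0.12. The gamma subunits of eIF2 and Eif4a2 kept their sign, at 0.77 for Eif2s3x, 0.50 for Eif2s3y and 0.33 for Eif4a2 without them. Among the eIF2B genes Eif2b1 was at 0.26 and Eif2b4 at 0.19, and Eif4a3, the helicase of the exon junction complex, at 0.14. The elongation factors with the most counts were at 0.40 for Eef2, 0.57 for Eef1a1 and 0.42 for Eef1b2 without them.

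Taken by class, elongation and initiation factors differed in the direction of their medians. Of 7 elongation factors, 4 were above 0 with a median of 0.24. Of 49 initiation factors, 19 were above 0 with a median of -0.08. Over all 7700 genes 49.8% were above 0 with a median of -0.00, so the difference between the class medians was 0.31. Restricted to core factors, which leaves out Eif5a, the eIF2 kinases, the cap-binding repressors, eIF2B, Eif1ad, Eef1e1 and Eef2k but keeps the eEF1B subunits, 4 of 5 elongation factors (median 0.39) and 19 of 36 initiation factors (median 0.02) were above 0. These medians carry no test. The median of the initiation factors was 0.13 and the difference 0.09 without fasted libraries 1 and 3, and the difference was 0.56 without fasted library 4 and 0.10 without fed library 4. Without TMM scaling, on library totals alone, the median of all genes was 0.51 with 79.9% above 0. On that scale the elongation median was 0.74, with 4 of 7 above the median of all genes, and the initiation median 0.35, with 18 of 49 above it.

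On TMM-scaled library sizes elongation factors gave a summed level of 3088 ± 379 CPM (SD, n = 4) in fed and 4013 ± 414 in fasted libraries. These levels did not overlap, whereas the unscaled shares of elongation factors in all counts did. Initiation factors gave 3490 ± 197 and 3563 ± 135 CPM, with overlap. A ratio of summed counts within a library does not depend on scaling. The log2 ratio of elongation to initiation counts was -0.46, -0.15, -0.07 and -0.06 in fed and -0.01, 0.29, 0.11 and 0.28 in fasted libraries. All fasted ratios lay above all fed ones, with fasted library 1 next to fed library 5, and the means were -0.18 ± 0.19 and 0.17 ± 0.15 (SD, n = 4). The difference of 0.35 was 0.38 without fasted libraries 1 and 3, and leaving out each library in turn gave 0.26 to 0.41.

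That ratio turned on where Eif5a was placed. With Eif5a counted among the elongation factors, as its known action would have it, the means were 0.70 ± 0.17 in fed and 0.77 ± 0.17 in fasted libraries, a difference of 0.07 with overlapping groups. With Eif5a in neither class they were 0.30 ± 0.19 and 0.52 ± 0.17, a difference of 0.22, again with overlap. Core factors alone, again without Eif5a, gave 0.41 ± 0.22 and 0.59 ± 0.19, a difference of 0.18 with overlap. Separation of the groups thus held for the classes as the symbols write them, and for none of these 3 other groupings, each of which takes Eif5a out of the initiation sum.

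**Figure D4:**
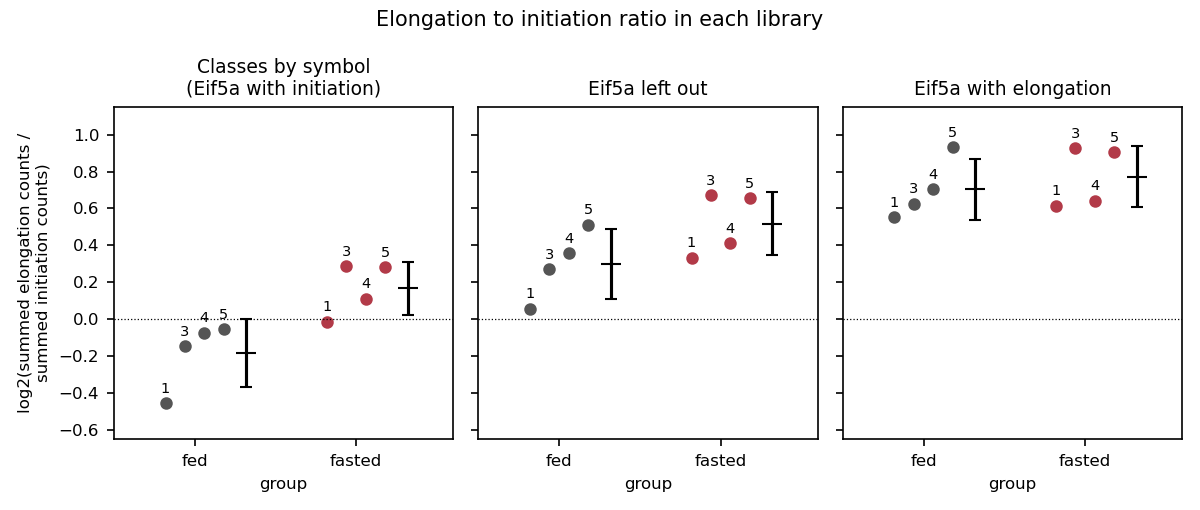
Log2 ratio of summed elongation to summed initiation counts (y axis) in each fed (grey) and fasted (red) library, numbered, with the mean ± SD (n = 4), under 3 placements of Eif5a. The groups do not overlap when Eif5a is counted with initiation (left), and overlap when it is left out (middle) or counted with elongation (right).

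Counts were spread unequally within each class. Eef2 alone held 46.0% ± 4.20 (SD, n = 4) of elongation factor counts in fed and 48.9% ± 3.05 in fasted libraries, and Eef1a1 held 22.9% ± 5.30 and 22.99% ± 3.58. Both shares overlapped between the groups. So did those of Eef1b2 (17.3% to 19.3% in fed and 16.65% to 21.7% in fasted libraries) and Eef1d (2.36% to 4.2% and 2.57% to 3.11%). Eif1 held 17.1% ± 0.643 of initiation factor counts in fed and 23.5% ± 5.11 in fasted libraries, from 16.2% to 17.7% and from 18.8% to 30.0%, without overlap. The shares of Eif1 and Eif5a are parts of the same sum and are not independent. Shares of most members were not computed, so those without overlap (Eif1, Eif5a and Eef1g) have no background to be read against. As shares of all counts, unscaled, initiation factors made 0.191% to 0.454% in fed and 0.206% to 0.772% in fasted libraries, and elongation factors 0.181% to 0.365% and 0.251% to 0.862%. The highest of these were in fasted libraries 1 and 3, the libraries with the least acinar RNA.

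The members' values also went with transcript length and with level. Length was not used to choose the genes, while the filter for testing left out members with few counts. Across the 56 members the fold change went with median transcript length at a Spearman rho of -0.30, and across 7214 tested genes with a length at -0.03. The genes share the same 8 libraries and are not independent replicates, so these are descriptions. Among the 28 members shorter than 2153 bases 14 were above 0 (median 0.00), and among the 28 of that length or longer 9 were (median -0.16). With mean level in CPM the members' fold change went at a rho of 0.39, further from 0 than with length, against 0.07 over all genes. Over the 49 initiation factors alone the rho was 0.30 with level and -0.30 with length. By length, over all genes, 1429 of 2853 shorter ones and 2163 of 4361 longer ones were above 0. Within libraries, the members' deviation from their own mean went with length at a rho of -0.48 in fasted library 1 and -0.26 in fasted library 3, and also at -0.21 in fasted library 5 and -0.19 in fed library 5. It was 0.01 in fed library 1, 0.33 in fed library 3, 0.38 in fed library 4 and 0.24 in fasted library 4.

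Of the start regions in the RefSeq table, 250 bases before to 50 after the start, 47 belonged to members. CACGTG, searched on both strands, was in 12 of the 47 (25.5%), in 12.7% of the 5869 tested genes with such a region and in 8.1% of all 27025. Among the 12 were Eef2, Eif4g1, Eif4e, Eif4a1, Eif4h, Eif3a and Eif5a, whose fold changes lay on both sides of 0. The median log2 fold change was -0.12 over the tested members with CACGTG and -0.08 over those without. CTCTT, searched on the gene's strand near the start, was in 7 of 47 (14.9%) against 8.0% of tested genes, Eef2 and Eef1a1 among them, with medians of -0.08 with and -0.08 without. CCGGAAG, a core of ETS factor sites, was in 36.2% against 23.1% of tested genes, with medians of -0.14 with and -0.04 without. GGGCGG, the GC box, was in 74.5% against 71.9%, with medians of -0.11 with and 0.23 without. Both were searched on both strands. These are matches of letters, which do not show that a factor binds.

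Other genes of the translation pathway, 60 in a list that covers cap and poly(A) partners, release factors, mTORC1 and its kinases and phosphatases, mitochondrial factors, and the enzymes that modify eEF2 and eIF5A, gave no call either. Of these, 56 were in the table and 47 tested, 16 above 0 and 31 below, with a median of -0.23 and 1 unadjusted p under 0.05 (edgeR). Over all 7700 genes 49.8% were above 0 with a median of -0.00, and 4.39% had an unadjusted p under 0.05 (edgeR). How the counts of this list change in the other fits is not given here. The listed gene with an unadjusted p under 0.05 was Ppp1r15a, GADD34, which directs the phosphatase that reverses eIF2 phosphorylation. It was at 263, 272, 245 and 365 CPM in fed and 561, 552, 280.0 and 411 CPM in fasted libraries. Fed library 5 exceeded fasted library 4, so the groups overlapped, and the log2 fold change was 0.66 ± 0.25 (SE) with an unadjusted p of 0.0251 and an adjusted p of 1.00 in edgeR. The highest values were again those of fasted libraries 1 and 3.

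Pabpc1, the poly(A)-binding protein that bridges mRNA ends through eIF4G, averaged 132 ± 58.8 CPM (SD, n = 4) in fed and 183 ± 28.7 in fasted libraries, or 0.47 ± 0.30 (SE) on the log2 scale. Tpt1, a highly translated TOP mRNA, had the third smallest p among those above 0, with a log2 fold change of 0.17. Below 0 the smallest p-values were those of Mknk1, a kinase of eIF4E (-1.14 ± 0.52, SE), Pelo, a ribosome rescue factor (-0.78 ± 0.46), and Ncbp2, the nuclear cap-binding subunit (-0.69 ± 0.44). Mknk1 was at 8.48, 10.55, 31.7 and 9.25 CPM in fed and 3.04, 6.83, 8.30 and 9.48 CPM in fasted libraries. Its fed mean leaned on fed library 4, and the groups overlapped through fasted library 5. Of the cap and poly(A) partners 4 of 16 were above 0, of the modifying enzymes 1 of 3, of the release and recycling genes 1 of 4, of the mitochondrial factors 1 of 5, and of the mTORC1, kinase and phosphatase genes 8 of 18.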

How the data were processed

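RNA of islet ILC2 was extracted with Trizol and sequenced as multiplexed CEL-seq2 libraries, per the labels' protocols. The authors deposited raw counts, whole numbers for each gene. Per the submitters' processing notes, STAR, edgeR and build mm10 were used. The sources used here give no versions and do not say if reads or molecular identifiers were counted. Each of the 4 sequencing files holds both treatments, so groups were read from the column names, with control taken as fed, and 2 further columns were not used.

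The 11 spike-in rows (20 counts) were left out. With edgeR 4.0.16 in R 4.3.3, filterByExpr kept 7700 genes, TMM scaled the libraries and a robust quasi-likelihood fit set 4 fasted against 4 fed libraries, two-sided, with Benjamini-Hochberg adjustment at 0.05. The common biological coefficient of variation was 0.506. The scripts were tested on simulated data. Alternatives were other scalings and filters, DESeq2 1.42.0, limma-voom with quality weights (limma 3.58.1), a covariate for acinar RNA, a replicate block and leaving out libraries. The alternatives that move Eif5a or keep core factors alone, and those of the ratio of summed counts, were chosen after seeing the data. Within groups, the smallest chi-square per gene between 2 libraries was 13.6, well over counting noise.

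Same-numbered libraries deviated together, at correlations of 0.23, 0.14, 0.50 and 0.13. The main comparison was unpaired, and pairing by number was fitted only as an alternative, the replicate block. Fed 4 with fasted 5 (0.22) and fed 1 with fasted 3 (0.20) also exceeded 0.1, and no label states what the numbers mean.

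Members and lists were chosen with earlier results of these data known. Members named in the text are the 6 of smallest p on each side of 0, those whose groups do not overlap, the 5 most abundant of each class and a set fixed by role. Of the pathway list, the 3 of smallest p on each side are named. Members outside this rule (Eif1a, Eif1b, Eif2a, Eif2b1 to Eif2b4, Eif2d, Eif2s3y, Eif4a3, Eif4g3 and other Eif3 subunits) were named after their values were seen. Gene coordinates and transcript lengths come from GENCODE vM21, and start regions from RefSeq. In the GENCODE annotation exons of 17 members overlap those of another gene, and not every case is named in the text.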

Additional observations from a re-analysis of the deposited data

Results flagged for a closer look

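Among 80 groups of 4 libraries looked at, 10 held a library whose level stood far from the other 3. In 8 of the 10 that library was number 4 of its group. The rule flags about 1 in 20 groups when values are independent and normal. Most of these values were CPM not on a log scale, and the groups share the same 8 libraries. The 10 flags were therefore not read as more than chance would give. Eif5b was at 30.4 CPM in fed library 4, where the other fed libraries had 10.7 to 12.8, and at 58.2 CPM in fasted library 4, where the others had 8.001 to 12.1. Fasted library 4 also stood high for Eif2s2, at 45.7 CPM against 6.44 to 12.5, and for Eif3a, at 23.04 CPM against 3.27 to 5.69, and low for Eif4enif1, at 0.922 CPM against 2.34 to 2.46. Fed library 4 stood high for Eif2b5 (16.6 CPM against 10.7 to 11.7), Eif4ebp2 (10.6 CPM against 4.46 to 5.48) and Eif2ak3 (15.2 CPM against 1.03 to 3.25). Eif4e was low in fed library 5, at 6.17 CPM against 38.6 to 44.6 in the other fed libraries. Eif4ebp1 was high in fasted library 5, at 86.8 CPM against 24.8 to 33.2.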

How the results depend on the processing

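No member was called under any of the 19 alternatives. The count of genes called was 0 in the main comparison, 1 on library totals, 1 with no filter on low counts and 8 with DESeq2. Genes with an unadjusted p under 0.05, 338 in edgeR, numbered 729 in limma-voom with quality weights (both changed together), 535 with the replicate block, 919 of 15661 with no filter and 561 without fasted library 4. The initiation median of -0.08 became 0.35 on library totals, -0.24 in limma-voom, 0.12 with the acinar covariate, 0.13 without fasted libraries 1 and 3, and -0.24 to 0.031 with single libraries left out. The elongation median of 0.24 became 0.74 on library totals and 0.058 with Eif5a among elongation factors, and was 0.13 to 0.32 with single libraries left out. The difference of the medians, 0.31, was 0.53 in limma-voom, 0.10 with the covariate, 0.088 without fasted libraries 1 and 3, 0.13 with Eif5a among elongation factors, and 0.10 to 0.56 with single libraries left out. The log2 ratio of summed counts differed by 0.35 between the groups, and by 0.068 with Eif5a among elongation factors. With the replicate block, a paired fit, the medians were -0.06 and 0.23 and no call changed.

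Among the genes of the naming rule, single genes changed sign as follows, and the cause was not tested. On library totals, where all genes shift up, the log2 fold changes were 0.20 for Eif5a, 0.10 for Eif1ad, 0.38 for Eef1g, 0.31 for Eif1ax, 0.24 for Eif2b5, 0.30 for Eif4a1, 0.13 for Eif4e, 0.18 for Eif4g2, 0.35 for Eif4ebp2, 0.15 for Eif5, 0.57 for Eif6 and 0.093 for Eef2k. With the acinar covariate they were 0.24 for Eif2s2, 0.20 for Eif2b5, 0.25 for Eif4g2, 0.11 for Eif5 and 0.072 for Eef2k. Without fasted libraries 1 and 3 they were 0.40 for Eif2s2, 0.24 for Eif2b5, 0.080 for Eif3a, 0.32 for Eif4g2, 0.12 for Eif4ebp3, 0.12 for Eif5 and 0.19 for Eef2k, and outside that rule Eif1b, Eif2a, Eif2b1, Eif2b4, Eif3c and Eif4a3 changed sign too. In limma-voom they were -0.14 for Eif4a2, -0.33 for Eif5b and 0.078 for Eif6. With single libraries left out, the ranges that crossed 0 were -0.32 to 0.25 for Eef2k, -1.30 to 0.33 for Eif2ak3, -0.27 to 0.055 for Eif2b5, -1.27 to 0.010 for Eif2s2, -0.30 to 0.28 for Eif4a2, -0.35 to 0.17 for Eif4g2, -0.81 to 0.23 for Eif5, -0.79 to 0.92 for Eif5b and -0.28 to 0.18 for Eif6. Low counts limit the scarce members most, and 3 of 59 could not be tested.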
